A study of Mus musculus with 12 samples.

Results

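Expression of 9 enzymes of folate metabolism and deoxynucleotide synthesis was followed in mouse 2-cell embryos. They were Mthfd1, Mthfd2, Shmt1, Shmt2, Tyms, Tk1, Tk2, Rrm1 and Rrm2, 9 of the 18163 genes that the arrays name. A total of 25 probe sets carried one of these symbols alone, and 1 more was shared by Tyms and Tyms-ps. The probe set with the highest mean log2 value over the 12 arrays stood for each gene and the others served as a check.

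These enzymes supply the building blocks of DNA. Serine hydroxymethyltransferases (Shmt1 in the cytosol, Shmt2 in mitochondria) load a carbon unit from serine onto tetrahydrofolate, and the Mthfd enzymes interconvert the loaded folates. Thymidylate synthase (Tyms) spends one of these folates to make thymidylate, thymidine kinases (Tk1 in the cytosol, Tk2 in mitochondria) salvage thymidine, and ribonucleotide reductase (Rrm1 with Rrm2) turns ribonucleotides into deoxyribonucleotides. In dividing somatic cells Tyms, Tk1 and Rrm2 rise with S phase, whereas Tk2 is also present in resting cells. The early embryo starts with transcripts stored by the oocyte and activates its own genome at the 2-cell stage.

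The arrays compared Ccna2-MO embryos with their uninjected controls and Oct4-MO embryos with theirs, with 3 arrays in each of the 4 groups. A morpholino oligonucleotide (MO) is an antisense molecule that blocks translation of its target mRNA. Ccna2 encodes cyclin A2, a cyclin of S phase and mitosis, and Oct4 (Pou5f1) encodes a transcription factor of pluripotent cells. Each array held a pool of 20 embryos at the mid-2-cell stage, of which RNA equal to 10 embryos was amplified in 2 rounds and hybridized to a mouse genome array. All 4 groups came from wild type F1 (C57BL6xDBA/2) females of 3 to 5 weeks, superovulated and mated to wild type males, with zygotes of 3 to 6 females pooled at 17 h after hCG. According to the labels, the Ccna2-MO was aimed at the 5'UTR and the Oct4-MO at the translational start, and both went into the cytoplasm at 0.6 mM. The paper's methods and its list of array experiments instead give a higher dose for the Ccna2-MO than for the Oct4-MO. The doses on the arrays may therefore have differed. Uninjected embryos came from the same pool as the injected ones and were cultured beside them. The controls thus lack both the injection and any MO, and each target had a single MO group. The paper lists 2 Ccna2-MO sequences and does not say which was used for the arrays. For its listed MOs it names the 5'UTR and/or the start site, so the Ccna2 target site rests on the labels.

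A translation block need not lower its own transcript. Ccna2 had 3183, 3205 and 4398 in Ccna2-MO embryos, against 3949, 3444 and 4222 in their uninjected controls (adjusted p = 0.76). Pou5f1 had 2289, 1825 and 2466 in Oct4-MO embryos, against 1798, 1859 and 2112 in theirs (adjusted p = 0.77), so the arrays do not test either knockdown. Values are intensities, and between 39.3 and 42.7% of probe sets lay under 16 on an array.

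Marker lists of stage and of other cell types moved in part with the injected groups. The 13 measured oocyte and early embryo markers, Zp3 and Gdf9 among them, had summed values of 15260 to 19821 over the 12 arrays. Zar1 of that list averaged 392 in Ccna2-MO embryos, against 71.5 in their controls, and rose (log2 2.19, SE 0.39, adjusted p = 0.033). In Oct4-MO embryos Zar1 averaged 303, against 73.6 in their controls (log2 1.85, SE 0.39, adjusted p = 0.12). The 9 measured genes of 2-cell stage transcription (14 listed) summed to 13270 to 17073 over all arrays, and each knockdown had 1 call among them. Hspa1a, a heat shock protein gene transcribed early by the mouse embryo, rose in Ccna2-MO embryos (log2 1.29, SE 0.21, adjusted p = 0.027) and had a log2 fold change of 0.74 in Oct4-MO embryos (SE 0.21, adjusted p = 0.26). Trim43a fell in Oct4-MO embryos (log2 -1.12, SE 0.14, adjusted p = 0.022) and had a log2 fold change of -0.38 in Ccna2-MO embryos (SE 0.14, adjusted p = 0.24). The calls of Zar1, Hspa1a and Trim43a held in 16, 15 and 16 of 24 alternatives. The 14 measured cumulus cell genes summed to 359 to 518 in Ccna2-MO embryos, against 223 to 394 in their controls, and to 463 to 715 in Oct4-MO embryos, against 298 to 375 in theirs. None of them passed. Cyp11a1 made up much of these sums, with a mean of 216 in Ccna2-MO embryos, against 82.0 in their controls (log2 1.65, adjusted p = 0.18), and of 331 in Oct4-MO embryos, against 131 in theirs (log2 1.24, adjusted p = 0.51). The defining Has2 averaged 21.0 in Ccna2-MO embryos, against 10.9 in their controls, and Ptx3 12.8 against 7.08. In Oct4-MO embryos Has2 averaged 12.5, against 19.7 in their controls, and Ptx3 12.4 against 12.05. All these means lie close to or below 16. The 10 sperm genes summed to 1143 to 1418 in Ccna2-MO embryos, against 902 to 1301 in their controls. In Oct4-MO embryos they summed to 1399 to 1478, against 1102 to 1239 in theirs, and none passed. Odf2 made up most of these sums. It averaged 958 in Ccna2-MO embryos, against 842 in their controls, and 1085 in Oct4-MO embryos, against 880 in theirs. Prm1 averaged 165 in Ccna2-MO embryos, against 131 in their controls, and 233 in Oct4-MO embryos, against 160 in theirs. For Prm2 these means were 27.8 against 6.64 and 18.5 against 33.4. The part of these markers in the results on the enzymes was not tested.

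Of the 9 enzymes, 2 rose and none fell in Ccna2-MO embryos: Mthfd2, the mitochondrial methylenetetrahydrofolate dehydrogenase, and Tk2, the mitochondrial thymidine kinase. Over all 18163 genes 0.93% were called in this comparison, with 0.462% of all genes higher and 0.468% lower. None of the 9 was called in Oct4-MO embryos, where 0.0936% of all genes were. Calls required an adjusted p under 0.05 in limma, with the adjustment made over all probe sets, and log2 fold changes refer to value + 16. At an unadjusted p under 0.05 stood 3 enzymes in Ccna2-MO embryos (16.7% of all genes) and 2 in Oct4-MO embryos (10.6%). The median log2 fold change of the 9 was -0.14 in Ccna2-MO embryos, against 0.03 over all genes, and 0.15 in Oct4-MO embryos, against 0.01. The enzymes did not move as a group: 4 lay above 0 and 5 below in Ccna2-MO embryos, and 5 above and 4 below in Oct4-MO embryos.

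**Figure D1:**
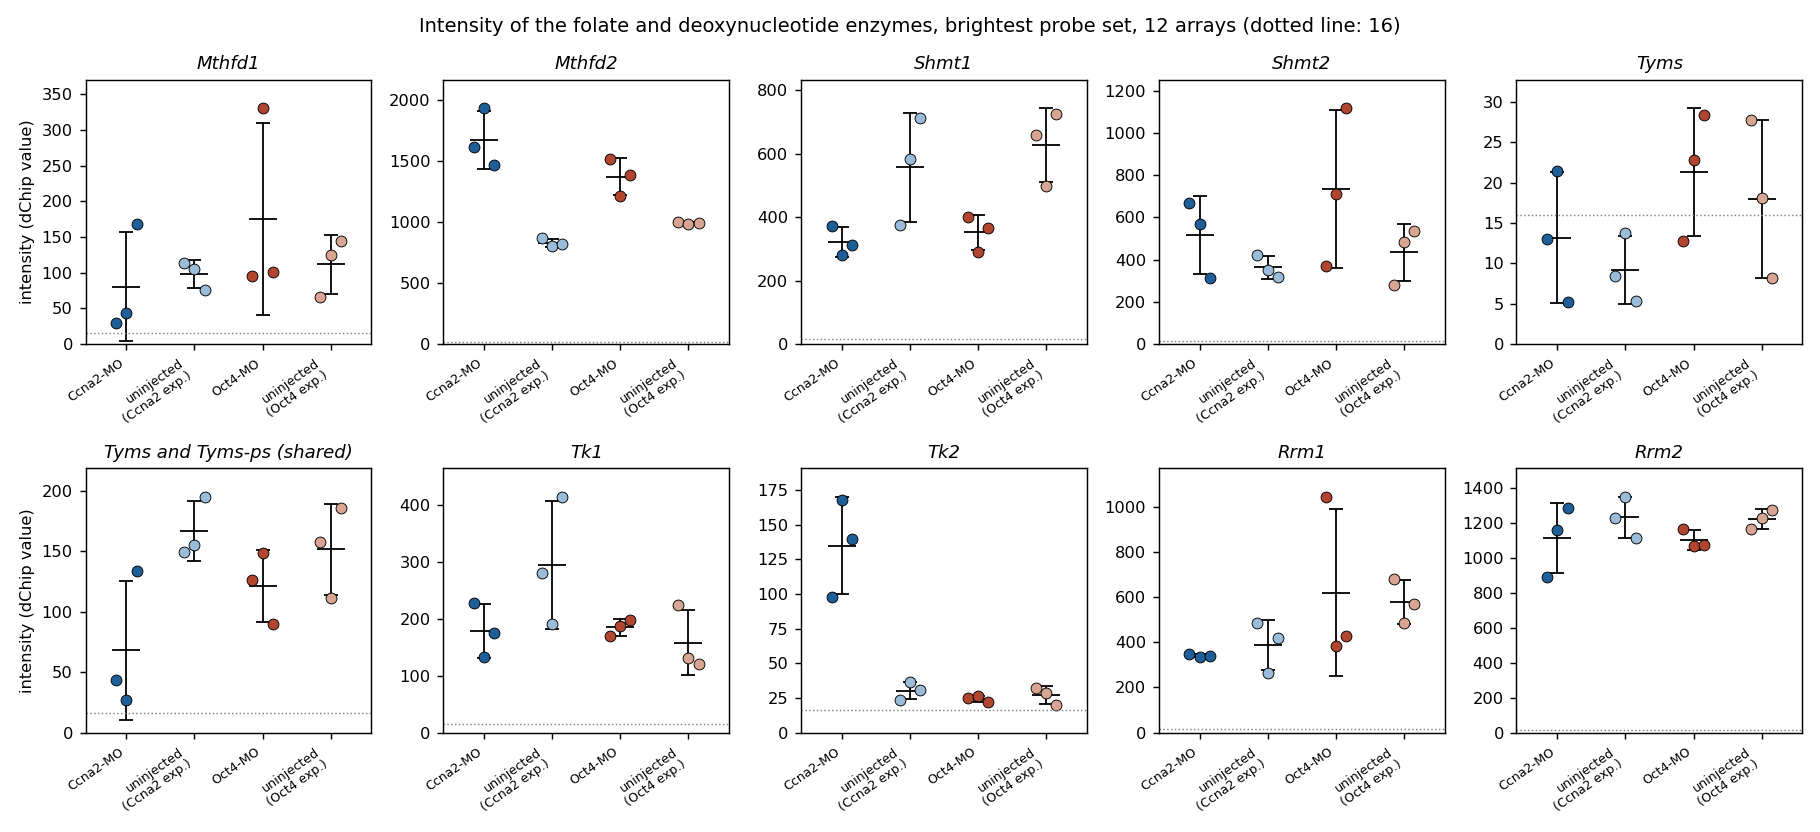
Intensity of each enzyme on its brightest probe set, and of the probe set shared by Tyms and Tyms-ps, in the 4 groups. Points are single arrays, horizontal bars are means and whiskers are SD (n = 3 per group), and each panel has its own linear axis from 0. Mthfd2 was higher on all 3 arrays of both injected groups than on any of their controls, and Tk2 stood apart only in Ccna2-MO embryos.

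Mthfd2 carries the dehydrogenase and cyclohydrolase steps of the mitochondrial folate pathway and is known for high levels in embryonic and transformed cells. On its brightest probe set (1419253_at) it had 1617, 1934 and 1466 in Ccna2-MO embryos, against 867, 800.4 and 821 in their uninjected controls. In Oct4-MO embryos it had 1517, 1211 and 1389, against 998, 986 and 994 in the uninjected controls of that experiment. The injected and uninjected arrays did not overlap in either experiment, and the controls lay close together, with an SD of 34.3 around a mean of 829 and of 5.83 around 993. In Ccna2-MO embryos Mthfd2 rose by a log2 fold change of 0.99 (SE 0.14, adjusted p = 0.014), with pair differences of 0.89, 1.26 and 0.82. In Oct4-MO embryos the log2 fold change was 0.46 (SE 0.14, unadjusted p = 0.0066, adjusted p = 0.29), with pair differences of 0.60, 0.29 and 0.48, which did not pass. Genes without overlap and higher in the injected group made up 9.89% of all genes in the Ccna2-MO comparison and 9.21% in the Oct4-MO comparison.

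A second Mthfd2 probe set (1419254_at) had 659.9, 1188 and 1038 in Ccna2-MO embryos, against 554, 527 and 690.5 in their controls. Here Ccna2-MO and control arrays overlapped, and the log2 fold change of 0.66 (SE 0.23, adjusted p = 0.20) did not pass. The Oct4-MO arrays had 984, 1203 and 1182, against 590.2, 760.3 and 537 in their controls, without overlap (log2 0.83, SE 0.23, adjusted p = 0.23). The 2 probe sets thus put the injected groups in different orders: the brightest had Ccna2-MO embryos highest by mean and the second had Oct4-MO embryos highest, with overlapping arrays in both cases. They correlated over the 12 arrays at r = 0.72. The change in Ccna2-MO embryos minus the change in Oct4-MO embryos was 0.54 on the brightest probe set (95% interval 0.11 to 0.96, adjusted p = 0.69) and -0.17 on the second (-0.87 to 0.52), so a difference between the knockdowns was not shown.

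The Mthfd2 call was lost without replicate 1 of the uninjected Ccna2 controls, where the log2 fold change of 1.02 had an adjusted p of 0.056. Over the 24 alternatives tried, Mthfd2 passed in 21, with log2 fold changes of 0.82 to 1.08.

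Tk2 phosphorylates thymidine and deoxycytidine inside mitochondria, where it feeds the replication of mitochondrial DNA. Its only probe set (1426100_a_at) had 97.7, 168 and 139.6 in Ccna2-MO embryos, against 23.8, 36.4 and 30.6 in their uninjected controls. Oct4-MO embryos gave values of 24.9, 26.4 and 22.1, against 32.5, 28.6 and 20.1 in theirs. Every Ccna2-MO array lay above all 9 other arrays, whereas those 9 formed a single range of 20.1 to 36.4, a level not far above 16. Tk2 rose in Ccna2-MO embryos by a log2 fold change of 1.69 (SE 0.26, adjusted p = 0.023), 3.22-fold on the value + 16 scale, with pair differences of 1.51, 1.81 and 1.74. In Oct4-MO embryos the log2 fold change was -0.08 (95% interval -0.65 to 0.49, adjusted p = 0.97).

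The change of Tk2 in Ccna2-MO embryos minus that in Oct4-MO embryos was 1.77 (SE 0.37, unadjusted p = 0.00045), but after adjustment over all probe sets it did not pass (adjusted p = 0.39). In that test 2 of the 9 enzymes, Tk2 and Mthfd2, had an unadjusted p under 0.05, against 7.11% of all genes, and 0% of all genes passed after adjustment. With the pair of pools as a block, Tk2 in Ccna2-MO embryos had an adjusted p of 0.051 and Mthfd2 one of 0.046, so 1 of the 2 calls remained. The call of Tk2 was also lost without Ccna2-MO replicate 2 (adjusted p = 0.077), without replicate 1 of the uninjected Ccna2 controls (0.10) and without their replicate 3 (0.065). Over the 24 alternatives Tk2 passed in 18, with log2 fold changes of 1.06 to 2.11.

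**Figure D2:**
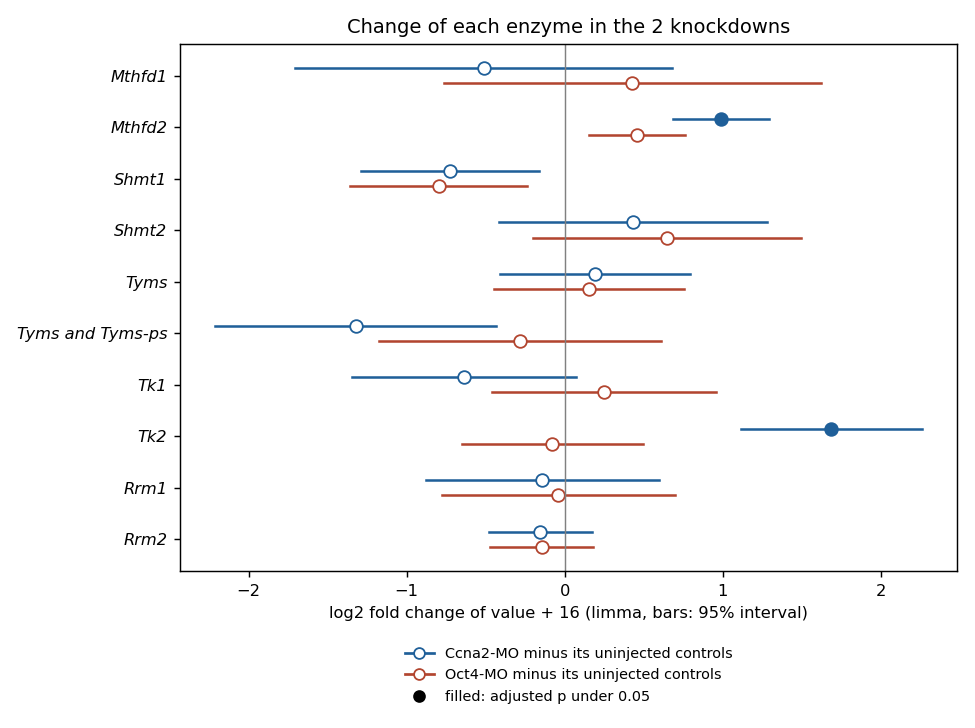
Log2 fold change of each enzyme on the value + 16 scale, with its 95% interval from limma, in Ccna2-MO embryos (blue) and Oct4-MO embryos (red), each against its own uninjected controls. Filled points passed at an adjusted p under 0.05: Mthfd2 at 0.99 and Tk2 at 1.69, both in Ccna2-MO embryos.

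The start regions of the enzymes were read for short motifs of known regulators, and those of Mthfd2 and Tk2, the enzymes that rose, are shown. RefSeq windows of the GRCm38.p6 build, from 250 bases before to 50 after 1 annotated start per gene, were found for all 9. Mthfd2, on the minus strand of chromosome 6, held 3 CCAAT boxes, shown here with each box in capitals (ATTGG is the same box on the other strand).
Mthfd2 at chr6:83317684-83317713: ttgactccttcagCCAATcaggacctgctc
Mthfd2 at chr6:83317635-83317664: actgagatctcctATTGGctcctacgccgg
Mthfd2 at chr6:83317610-83317639: gccggctcaggggCCAATgggcgcgcggga
They began at positions -96, -47 and -22 from the start, and this start lies inside the RefSeq gene record, which reaches further upstream. The starts used below for Tk2 and Mthfd1 also lie inside their gene records, so matches before a start can fall within the record. Tk2, on the minus strand of chromosome 8, held no CCAAT box and 2 GC boxes, the GGGCGG motif of Sp1, at positions -54 and -32.
Tk2 at chr8:104248595-104248624: ggatcccttaagGGGCGGggccggacaagg
Tk2 at chr8:104248573-104248602: ggacaaggggtgGGGCGGggctccaggacg
Neither window held an E2F motif, searched on both strands as TTCCCGC and also as TTGGCGC and as TTCGCGC and finally as TTGCCGC. E2F factors drive S phase genes, and 4 of the 9 windows had such a match (Mthfd1, Shmt1, Rrm1 and Rrm2), against 9.57% of 32851 windows. The windows of Shmt2, Tyms and Tk1 held no E2F match either, so its absence does not set Mthfd2 and Tk2 apart. Rrm2 had its match upstream at position -235, which is not shown. As examples, the matches of Rrm1 and Mthfd1 upstream of their starts, both on the plus strand, read as follows, with the motif in capitals.
Rrm1 at chr7:102441616-102441645: caggagaactcgTTCCCGCcaggtccgctt
Mthfd1 at chr12:76255167-76255196: gctaaaagcgagGCGGGAAgctcccggctc
CCAAT boxes stood in 5 of the 9 windows (37.4% of all) and GC boxes in 6 (35.7%). The octamer ATGCAAAT that Oct4 binds and the Atf4 element TGATGNAA were in 0 of the 9 windows, against 1.74% and 3.97% of all windows. The Shmt2 window held none of the 5 motifs. In the 9 windows no match of one motif overlapped a match of another. These matches describe letters only.

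Mthfd1, the cytosolic enzyme with dehydrogenase, cyclohydrolase and synthetase steps, varied widely within groups. Its brightest probe set (1415916_a_at) had 28.8, 43.4 and 168 in Ccna2-MO embryos, against 113, 104 and 75.3 in their controls. In Oct4-MO embryos it had 95, 331 and 101, against 65.4, 125 and 145 in theirs. One array per injected group stood far above the others, replicate 3 of Ccna2-MO and replicate 2 of Oct4-MO, and the groups overlapped in both comparisons. Log2 fold changes were -0.51 (SE 0.55, adjusted p = 0.74) in Ccna2-MO embryos and 0.43 (SE 0.55, adjusted p = 0.90) in Oct4-MO embryos. A second probe set (1436704_x_at) followed the first over the 12 arrays (r = 0.86) and the third did not (r = -0.44). The second is of a type in which some probes can match other sequences. Its log2 fold changes were 0.035 in Ccna2-MO embryos and 0.61 in Oct4-MO embryos. None of the 3 passed in either comparison.

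Shmt1, the cytosolic serine hydroxymethyltransferase, had lower values in both injected groups on its brightest probe set (1425179_at). It had 371, 280.0 and 312 in Ccna2-MO embryos, against 374, 582 and 714 in their controls. The Oct4-MO arrays had 399.5, 292 and 366, against 658, 497 and 725 in theirs. The groups did not overlap in either experiment, although the highest Ccna2-MO array and the lowest of its controls, which form pair 1, almost met (pair difference -0.01, against -1.01 and -1.15 in the other pairs). The log2 fold changes were -0.73 in Ccna2-MO embryos (SE 0.26, unadjusted p = 0.015, adjusted p = 0.22) and -0.80 in Oct4-MO embryos (SE 0.26, unadjusted p = 0.0090, adjusted p = 0.32), and neither passed. Genes without overlap and lower in the injected group made up 9.29% of all genes in the Ccna2-MO comparison and 9.57% in the Oct4-MO comparison. The 2 changes differed by 0.07 (95% interval -0.72 to 0.86).

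The other 3 Shmt1 probe sets did not follow the brightest one over the 12 arrays (r of 0.01, -0.25 and 0.10). On 1425178_s_at Shmt1 had 268, 223 and 142 in Ccna2-MO embryos, against 110.4, 98.9 and 134 in their controls, the opposite direction to the brightest probe set (log2 0.77, SE 0.33, adjusted p = 0.33). In Oct4-MO embryos the same probe set had 142, 86.1 and 97.4, against 114, 212 and 98.1 in their controls (log2 -0.30, SE 0.33, adjusted p = 0.88). All 4 Shmt1 probe sets gave log2 fold changes below 0 in Oct4-MO embryos, between -0.80 and -0.30, whereas in Ccna2-MO embryos they ranged from -0.73 to 0.77.

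Shmt2, which runs the same reaction in mitochondria and feeds Mthfd2, had 666, 569 and 312 in Ccna2-MO embryos on its brightest probe set (1455084_x_at), against 423, 348 and 319 in their controls. Oct4-MO embryos gave values of 369.6, 711 and 1118, against 282, 485 and 537 in theirs. Both pairs of groups overlapped, and the Oct4-MO arrays spread from 369.6 to 1118. Log2 fold changes were 0.43 in Ccna2-MO embryos (SE 0.39, adjusted p = 0.68) and 0.65 in Oct4-MO embryos (SE 0.39, adjusted p = 0.68). In Oct4-MO embryos the injected pool was above its own control in all 3 pairs (0.37, 0.54 and 1.04), and in Ccna2-MO embryos in pairs 1 and 2 (0.64 and 0.68, against -0.03 in pair 3). The other 3 Shmt2 probe sets followed the brightest one (r of 0.99, 0.97 and 0.71), and their log2 fold changes lay above 0 in both comparisons. The brightest probe set and the 2 that followed it most closely are all of a type (_x_at) in which some probes can match other sequences, so their agreement is not independent, while the fourth (1426423_at) is not of that type and had log2 fold changes of 0.15 in Ccna2-MO embryos and 0.20 in Oct4-MO embryos.

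Tyms was measured alone only by dim probe sets. The brightest of these (1438690_at) had 13.0, 21.4 and 5.17 in Ccna2-MO embryos, against 8.46, 13.7 and 5.32 in their controls. In Oct4-MO embryos it had 12.7, 22.8 and 28.4, against 27.7, 18.1 and 8.17 in theirs. Values this close to or below 16 carry no order between groups, and 7 of the 12 arrays lay under 16. The log2 fold changes of 0.19 in Ccna2-MO embryos and 0.15 in Oct4-MO embryos (SE 0.28 each, adjusted p = 0.82 and 0.94) did not pass.

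The probe set shared by Tyms and Tyms-ps (1424991_s_at) was brighter and is named for neither gene alone. It had 43.4, 27.0 and 134 in Ccna2-MO embryos, against 149, 155 and 195 in their controls. The Oct4-MO arrays had 126, 149 and 89.5, against 158, 111 and 185 in theirs. All 3 Ccna2-MO arrays lay below their controls, replicate 3 least so, while the Oct4-MO arrays overlapped with theirs. The log2 fold changes were -1.32 in Ccna2-MO embryos (SE 0.41, unadjusted p = 0.0070, adjusted p = 0.16) and -0.28 in Oct4-MO embryos (SE 0.41, adjusted p = 0.92), and neither passed. Without Ccna2-MO replicate 3 the first was -1.84 with an adjusted p of 0.029. The change in Ccna2-MO embryos minus that in Oct4-MO embryos was -1.04 (95% interval -2.30 to 0.22).

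Tk1, the cytosolic thymidine kinase of S phase, has a single probe set (1416258_at) with 228, 134 and 175 in Ccna2-MO embryos, against 279.9, 190.3 and 415 in their controls. Oct4-MO embryos gave values of 169, 188 and 197, against 224, 131 and 120.1 in theirs. Each Ccna2-MO pool was below its own control (pair differences of -0.28, -0.46 and -1.17), but the groups overlapped, and the Oct4-MO pools were below their control in pair 1 and above it in pairs 2 and 3. Log2 fold changes were -0.64 in Ccna2-MO embryos (SE 0.33, adjusted p = 0.41) and 0.25 in Oct4-MO embryos (SE 0.33, adjusted p = 0.90). The difference between these changes was -0.89 (95% interval -1.89 to 0.11, adjusted p = 0.77). In Ccna2-MO embryos the point estimates of the thymidine kinases thus had opposite signs, and that contrast between genes was not tested.

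Rrm1, the large catalytic subunit of ribonucleotide reductase, had 348, 335 and 338 in Ccna2-MO embryos on its brightest probe set (1415878_at), against 484, 266 and 417 in their controls. In Oct4-MO embryos it had 1044, 384 and 427, against 680.2, 487 and 569 in theirs. The Ccna2-MO arrays lay within the range of their controls, and Oct4-MO replicate 1 stood far above the other arrays of its group. The log2 fold changes were -0.14 in Ccna2-MO embryos (SE 0.34, adjusted p = 0.90) and -0.04 in Oct4-MO embryos (SE 0.34, adjusted p = 0.99). On 1448127_at Rrm1 had 63.7, 146 and 162 in Ccna2-MO embryos, against 166, 172 and 238 in their controls. There all Ccna2-MO arrays were the lowest of the 12, but the log2 fold change of -0.64 (SE 0.33, adjusted p = 0.42) did not pass. In Oct4-MO embryos this probe set had 319.9, 236 and 382, against 477, 339.9 and 333 in their controls, with overlap (log2 -0.29, SE 0.33, adjusted p = 0.89). The 2 probe sets correlated at r = 0.61, and the third was under 16 on all 12 arrays.

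Rrm2, the small subunit that sets the activity of the enzyme in cycling somatic cells, had the smallest SE of the 9 after Mthfd2. It had 892, 1160.1 and 1285 in Ccna2-MO embryos on its brightest probe set (1434437_x_at, of the same type as that of Shmt2), against 1229, 1348 and 1113 in their controls. The Oct4-MO arrays had 1167, 1066 and 1071, against 1163, 1224 and 1275 in theirs. Both pairs of groups overlapped. Log2 fold changes were -0.15 in both Ccna2-MO embryos (95% interval -0.48 to 0.17, adjusted p = 0.71) and Oct4-MO embryos (-0.47 to 0.18, adjusted p = 0.86). The other 2 Rrm2 probe sets gave log2 fold changes between -0.22 and 0.20 over both comparisons and correlated weakly with the brightest one (r of 0.33 and 0.31).

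**Figure D3:**
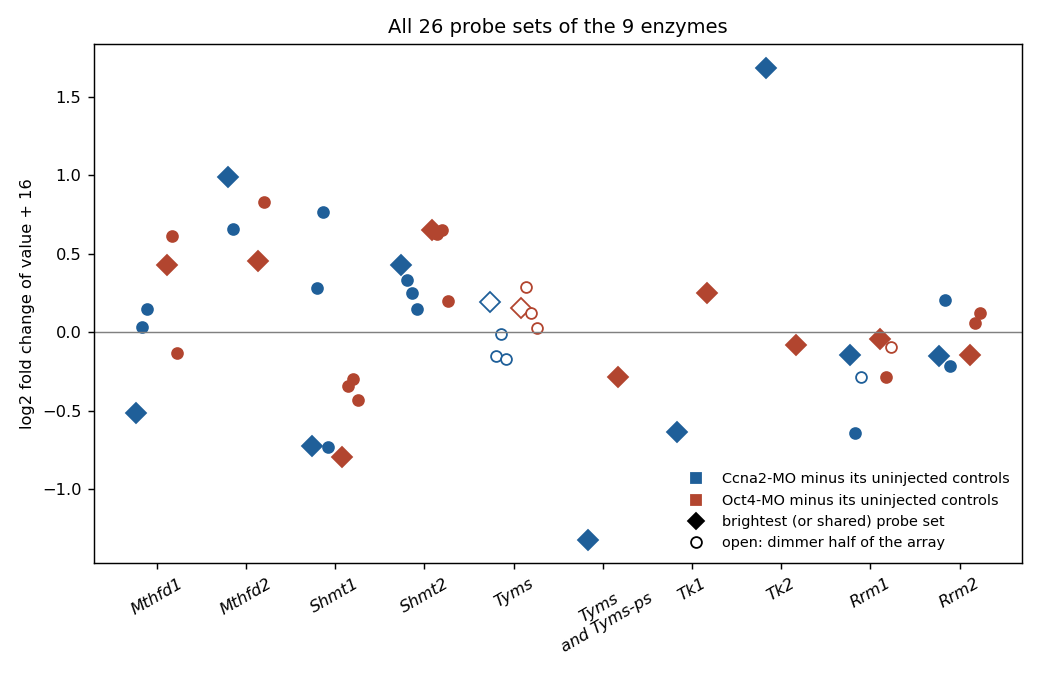
Log2 fold change of value + 16 on all 26 probe sets, with Ccna2-MO embryos (blue) left of Oct4-MO embryos (red) for each gene. Diamonds are the brightest probe set of a gene or the one shared by Tyms and Tyms-ps, and open symbols lie below the median brightness of the array. The Shmt1 probe sets of Ccna2-MO embryos ranged from -0.73 to 0.77, whereas all 4 Shmt2 probe sets lay above 0 in both comparisons.

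The uninjected controls of the Ccna2-MO and Oct4-MO experiments served as a measure of how far the enzymes differ between collections of untreated embryos. On the brightest probe sets none of the 9 was called between them (0.116% of all genes were), and 1 had an unadjusted p under 0.05 (12% of all genes). That was Tk1, with 279.9, 190.3 and 415 in the uninjected embryos of the Ccna2-MO experiment, against 224, 131 and 120.1 in those of the Oct4-MO experiment (log2 0.82, SE 0.33, adjusted p = 0.37). Mthfd2 and Rrm1 did not overlap between the 2 uninjected groups, and both were lower in the Ccna2-MO experiment. Over all genes 12.3% were lower without overlap and 10.4% higher. Their log2 differences were -0.26 for Mthfd2 (SE 0.14, adjusted p = 0.51) and -0.58 for Rrm1 (SE 0.34, adjusted p = 0.54). Tk2 differed by 0.11 between the uninjected groups (SE 0.26). Dimmer probe sets of Rrm1 (1448127_at, log2 -0.94), Rrm2 (1416120_at, 0.69) and Mthfd1 (1415917_at, 0.72) also differed without overlap. Their unadjusted limma p was 0.014, 0.02 and 0.043, and none passed (adjusted p = 0.3, 0.34 and 0.42). The brightest probe sets of Rrm2 and Mthfd1 gave 0.007 and -0.12. No other dimmer probe set of the enzymes had an unadjusted p under 0.05. Set beside these differences, the log2 fold changes in Ccna2-MO embryos were 0.99 for Mthfd2 and 1.69 for Tk2. Experiment and control group cannot be told apart here.

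By group mean, Mthfd2 followed the order Ccna2-MO, Oct4-MO, uninjected of the Oct4-MO experiment, uninjected of the Ccna2-MO experiment. Only the first neighbours in that order overlapped. Tk2 followed the order Ccna2-MO, uninjected of the Ccna2-MO experiment, uninjected of the Oct4-MO experiment, Oct4-MO, and only Ccna2-MO was separate from its neighbour. For the other 7 enzymes all neighbours overlapped on the brightest probe set. Since these are pools of whole embryos, a change in every embryo and a change in a few cannot be told apart, nor can fewer cells and less RNA per cell.

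For the 2 enzymes that rose, the genes with the most similar profile were sought among the 11417 genes with a brighter probe set (mean log2 value above the median of the array), by Pearson correlation over the 12 arrays. Mthfd2 was closest to Srpk2 (r = 0.96), Bcl7b (0.94) and Gyg (0.94). Srpk2 averaged 2140 in Ccna2-MO embryos against 995 in their controls, and 1577 in Oct4-MO embryos against 1124 in theirs. Tk2 was closest to Pfdn4 (r = 0.98), Gtf2b (0.97) and Kpna3 (0.95). Pfdn4 averaged 1154 in Ccna2-MO embryos against 400.3 in their controls, and 359 in Oct4-MO embryos against 442 in theirs. These correlations rest on the same 4 groups and arrays, and the best of many genes was taken, so they are given as a description.

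The genes around the 9 enzymes were counted in 5 lists. Of 28 measured genes of deoxynucleotide supply (31 listed), 1 rose in Ccna2-MO embryos and none in Oct4-MO embryos. That was Glrx, a glutaredoxin that can pass electrons to ribonucleotide reductase. It had 137, 135 and 149 in Ccna2-MO embryos, against 55.0, 46.8 and 51.4 in their controls (log2 1.22, SE 0.25, adjusted p = 0.047). Oct4-MO embryos gave values of 63.4, 89.5 and 103, against 23.4, 31.5 and 24.3 in theirs (log2 1.24, SE 0.25, adjusted p = 0.10). The groups did not overlap in either experiment, and the estimates were nearly equal. With the pair as a block the adjusted p in Ccna2-MO embryos was 0.096, and the call held in 6 of 24 alternatives. Ctps, which makes CTP, had 819, 616 and 792 in Ccna2-MO embryos, against 1212, 1507 and 1296 in their controls, just short of the threshold (log2 -0.84, SE 0.18, adjusted p = 0.053). In Oct4-MO embryos the gene of this list nearest to passing after Glrx was Nt5c, a dim nucleotidase transcript (log2 -1.0, SE 0.39, adjusted p = 0.45). The list's median was 0.11 in Ccna2-MO embryos and -0.17 in Oct4-MO embryos.

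None of the 23 measured genes of the folate and one-carbon cycle (27 listed) passed in either knockdown. In Ccna2-MO embryos 18 of the 23 lay below 0, with a median of -0.24, and in Oct4-MO embryos 14, with a median of -0.09. Nearest to passing in Ccna2-MO embryos were Mtfmt, which formylates the mitochondrial initiator tRNA (log2 1.5, SE 0.38, adjusted p = 0.096), and Gcsh of the glycine cleavage system (-0.28, SE 0.09, adjusted p = 0.16). In Oct4-MO embryos they were Folr1, a folate receptor (-1.35, SE 0.34, adjusted p = 0.19), and again Gcsh (-0.29, SE 0.09, adjusted p = 0.29). Folr1 had 295, 158 and 125 in Oct4-MO embryos, against 512, 493 and 452 in their controls, without overlap.

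Purine synthesis uses the carbon units made by Shmt and Mthfd enzymes at some of its steps. The list of purine and pyrimidine synthesis had 17 measured genes of 18 listed. None passed, 13 lay below 0 in Ccna2-MO embryos (median -0.44) and 11 in Oct4-MO embryos (median -0.46), against medians of 0.03 and 0.01 over all genes. Ppat, which commits to purine synthesis, had 1564, 1017 and 979.7 in Ccna2-MO embryos, against 2339.7, 2007 and 1732 in their controls (log2 -0.79, SE 0.21, adjusted p = 0.11). In Oct4-MO embryos it had 1491, 1292 and 865, against 1886, 1876 and 1977 in theirs (log2 -0.68, SE 0.21, adjusted p = 0.30). Its arrays did not overlap in either experiment. Paics in Ccna2-MO embryos (log2 -0.91, SE 0.32, adjusted p = 0.21) and Gmps in Oct4-MO embryos (-1.38, SE 0.36, adjusted p = 0.21) were the other genes nearest to passing.

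Mthfd2 and Shmt2 are known targets of Atf4, a transcription factor of the amino acid response. Of 12 measured genes of serine synthesis and Atf4 targets (13 listed) none passed, and the medians were 0.04 in Ccna2-MO embryos and -0.28 in Oct4-MO embryos. Atf4 itself had 2199, 2039.7 and 1817 in Ccna2-MO embryos, against 1775, 2082 and 1869 in their controls (log2 0.08, SE 0.11, adjusted p = 0.81). The Oct4-MO arrays had 2729.7, 3021 and 3099.9, against 2801, 2458 and 2419.6 in theirs (log2 0.20, SE 0.11, adjusted p = 0.63). Nearest to passing were Slc7a11 (0.82, adjusted p = 0.25) and Ddit3 (0.54, adjusted p = 0.46) in Ccna2-MO embryos, and Ddit3 (1.29, adjusted p = 0.15) and Slc7a5 (-1.0, adjusted p = 0.22) in Oct4-MO embryos. Members of this list thus lay on both sides of 0.

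The regulators that tie these enzymes to the cell cycle, the E2f factors and pocket proteins among them, had 13 measured genes of 14 listed and none passed. Their medians were -0.08 in Ccna2-MO embryos and 0.05 in Oct4-MO embryos. E2f1, an activator of S phase genes, had 1638, 1823 and 1423 in Ccna2-MO embryos, against 1732, 1777 and 1528 in their controls (log2 -0.05, SE 0.13). Oct4-MO embryos gave values of 1375, 1218 and 1298, against 1217, 1115 and 1256 in theirs (log2 0.12, SE 0.13). Ccnf, the cyclin that directs degradation of the Rrm2 protein, had log2 fold changes of -0.76 in Ccna2-MO embryos (SE 0.26, adjusted p = 0.21) and -0.72 in Oct4-MO embryos (SE 0.26, adjusted p = 0.40). Rbl1 in Ccna2-MO embryos (0.78, SE 0.29, adjusted p = 0.25) and E2f2 in Oct4-MO embryos (0.46, SE 0.16, adjusted p = 0.36) were the others nearest to passing.

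**Figure D4:**
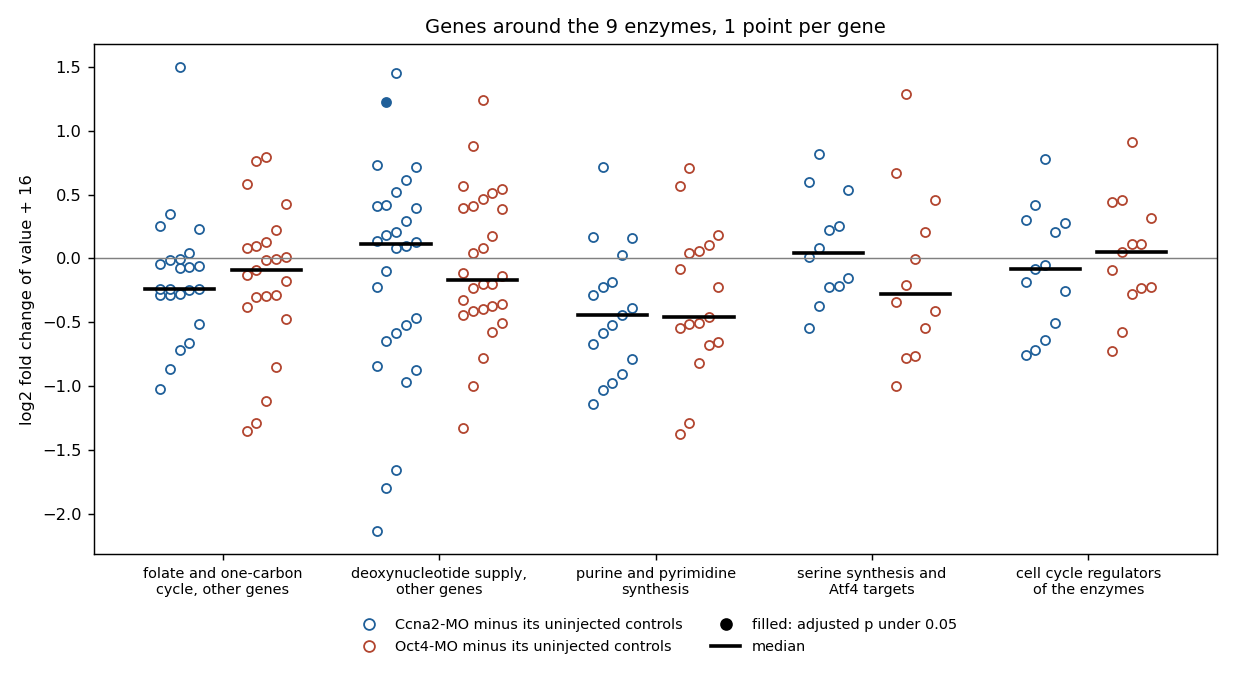
Log2 fold change of value + 16 for the genes of 5 lists around the 9 enzymes, 1 point per gene on its brightest probe set, with Ccna2-MO embryos (blue) left of Oct4-MO embryos (red). Black bars are medians, and the filled point is Glrx in Ccna2-MO embryos at 1.22, the only gene of these lists that passed.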

How the data were processed

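The authors normalized 12 Affymetrix arrays with dChip and deposited 1 intensity per probe set on a linear scale. The dChip version and expression model were not given in the sources used here. Of 45001 probe sets, 64 control probe sets were left out and 44937 tested, with no filter on dim ones. The platform annotation gave 34849 probe sets 1 symbol, 928 several and 9160 none.

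Values were analysed as log2(value + 16), which understates changes of dim probe sets. All arrays entered a single limma fit (version 3.58.1, R 4.3.3) of the 4 groups with an intensity trend, tested on simulated data. Benjamini-Hochberg adjustment ran over all probe sets. Groups and pairs came from the labels. The labels state that injected and uninjected embryos shared a pool, so replicate numbers pair the samples. After removal of group means, the arrays of a pair correlated over 22469 brighter probe sets at -0.015, 0.111 and 0.15 in the Ccna2-MO experiment and 0.105, 0.061 and 0 in the Oct4-MO experiment. The p-values measure the spread between pools, and 3 arrays per group limit the precision.

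The text names all 9 enzymes, every pathway or marker gene that passed, and the 3 genes most correlated with each enzyme that passed. It also names, for each pathway list and comparison, the 2 genes of lowest p, with E2f1 and Atf4 as background. Of the markers it names defining ones, with Cyp11a1 and Odf2, which were chosen after their values were seen. The enzymes and lists were chosen with earlier results of these data known. The windows come from RefSeq. Alternatives were a fit with the pair as block, the 6 uninjected arrays pooled as controls, a fit on 6 arrays alone, a fit without the intensity trend, an offset of 1 or of 64, only the 22469 brighter probe sets, quantile normalization, centring by the median, weights per array, the t-test of the methods, a gene's averaged probe sets, and omission of each array.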

Additional observations from a re-analysis of the deposited data

How the results depend on the processing

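Of the 9 enzymes, 2 were called in Ccna2-MO embryos. With the replicate pair as a block this count was 1 (Mthfd2), with only the 6 arrays of the comparison 0, and with the methods' t-test 0. With 1 array left out at a time it ran from 0 to 2: it was 0 without replicate 1 of the uninjected Ccna2 controls, 1 (Mthfd2) without Ccna2-MO replicate 2, and 1 (Mthfd2) without replicate 3 of those controls. Under the other alternatives both calls held. Some of these omit an array of the Oct4-MO experiment, which leaves the log2 fold changes in Ccna2-MO embryos unchanged and alters only the shared estimate of spread. The change in Ccna2-MO embryos minus that in Oct4-MO embryos had 0 calls and 1 (Tk2, log2 1.87, adjusted p = 0.025) with all 6 uninjected arrays as controls; it was 0 with each array left out. No enzyme was called in Oct4-MO embryos or between the uninjected groups under any alternative. The block could not be fitted between the uninjected groups, whose arrays share no pairs, and the t-test and the fits on 6 arrays give no difference of changes.

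Over the 9 enzymes, the shared Tyms probe set and 25 other named genes, no called value changed sign under the alternatives, and uncalled ones did in 25 cases, and in 38 more with an array left out. The genes correlated with Mthfd2 and Tk2 were not rerun. With the block 124 probe sets were called in Ccna2-MO embryos, against 336 without it, and 4 in Oct4-MO embryos, against 33. Fits on 6 arrays called 3 in Ccna2-MO embryos and 0 in Oct4-MO embryos. The cause of these changes was not tested. Dim signal limits Tyms and the control level of Tk2.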
